A study of Danio rerio with 49 samples.

Results

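The comparison described here sets heads against whole larvae of zebrafish that lack rlig1, at 5 days post fertilization (dpf). It was made by joining 2 tables of raw read counts by gene identifier, and its members are 9 of the 49 libraries of the series. Of these, 6 are MZrlig1 heads and 3 are MZrlig1 whole larvae. MZrlig1 denotes maternal-zygotic mutants, animals without a working rlig1 either from their mother or of their own. The labels do not describe the allele. The study as a whole followed wildtype and MZrlig1 animals through development and, at 5 dpf, profiled heads of larvae grouped by behaviour.

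Every library is a poly(A)-selected library from TRIzol-extracted RNA of a pool of 8 animals, kept at 28 °C. The heads came from larvae of the behavioural experiment, raised in a cycle of 14 h of light and 10 h of darkness. There are 2 MZrlig1 head pools labelled good behaviour (numbered 2 and 3) and 4 labelled bad behaviour (1 to 4), and the labels do not say how behaviour was scored. The 3 whole pools (a, b and c) came from the developmental series, whose embryos were raised in the dark. Wildtype larvae were profiled in the same manner, with 7 head pools in light and dark and 3 whole pools in the dark, and serve here for comparison. The wildtype head pools are good behaviour 1 to 4 and bad behaviour 1, 2 and 4, so the mix of behaviours differs between the genotypes. Tissue therefore changes together with light regime and with experiment in both genotypes, and these cannot be told apart. How the heads were cut, and the hour at which either kind of sample was taken, are not given in the sources used here. No label says that pools came from separate clutches, so the p-values measure the spread between pools.

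The rlig1 gene encodes an RNA ligase that joins RNA ends. A zebrafish larva at this age swims, sees and has a working brain, retina, lens, inner ear, jaw cartilage, heart, liver, pancreas and gut. Hox genes are transcription factors whose order within each cluster follows the order of their domains along the body, low-numbered groups in the hindbrain and high-numbered groups in the posterior trunk and tail. Cells throughout a zebrafish carry circadian clocks that respond directly to light, which induces genes such as period and cryptochrome repressors and DNA repair enzymes.

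The 9 libraries held 12158453 to 15781945 counts in heads and 13315137 to 15122206 in whole larvae. Levels are given as CPM, the usual scaling of counts by library size, with library sizes adjusted by the trimmed mean of M values (TMM). The CPM of rlig1 and the summed levels of whole lists are instead by total counts, without TMM. rlig1 had no count in 8 of the 9 libraries and 4 counts, or 0.253 CPM, in bad-behaviour head 4, against 7.48 to 13.7 CPM in the 10 wildtype libraries of 5 dpf. It was too low for the test among the 9. Spearman correlations of the log values were 0.939 to 0.990 among heads, 0.963 to 0.990 among whole larvae and 0.911 to 0.958 between them. Whole libraries put 15.7% to 17.1% of their counts into their 20 highest genes, and heads 9.96% to 11.4%. Good-behaviour head 3 and whole pool b stood apart from their groups in the same way, with higher values for short and lower values for long genes, and head 3 had the lowest mitochondrial share, 1.27% of counts against 2.61% to 3.61% in the other heads. Bad-behaviour head 2 stood apart in its organs: it had the lowest pancreatic levels of the heads and the highest levels of several retinal genes, as given below.

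Of 20818 genes tested, 3483 passed an adjusted p of 0.05 in edgeR's quasi-likelihood test, 16.7% of those tested. A gene that passed is said here to have risen or fallen in heads. Of these, 1612 rose (7.74%) and 1871 fell (8.99%). The counts within gene lists below are to be set against these shares. At 2-fold or more, 494 rose (2.37%) and 1008 fell (4.84%), so that the large differences were mostly falls. The median log2 fold change over all genes tested was 0.03, and in 4697 genes (22.6%) the 6 heads did not overlap the 3 whole libraries. The split depends on scaling: with total counts in place of TMM, 4322 genes passed, of which 2783 rose and 1539 fell. It also moves with the whole pools: 698 rose and 1228 fell without pool a, and 647 rose and 1298 fell without pool c.

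Among genes with their own name, no overlap between the groups and at least 20 CPM in the higher one, the 8 largest rises were those of ahsg2, PER2, si:dkey-14d8.7, pde6ha, soul5, ptgdsb.1, amy2a and ptgdsb.2. They include a plasma protein, a clock gene, a cone protein, a pancreatic enzyme and a pair of lipocalin-type prostaglandin D synthases. Among the 8 largest falls were those of FABP6, SLC12A3, myhz1.3, lrp2b, naaladl1, igfn1.3 and HOXB9. They include an ileal bile acid binding protein, a salt transporter of the kidney tubule, proteins of trunk muscle and a posterior Hox gene. Names in capitals are those the tables give, in the style of the human gene.

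**Figure D1:**
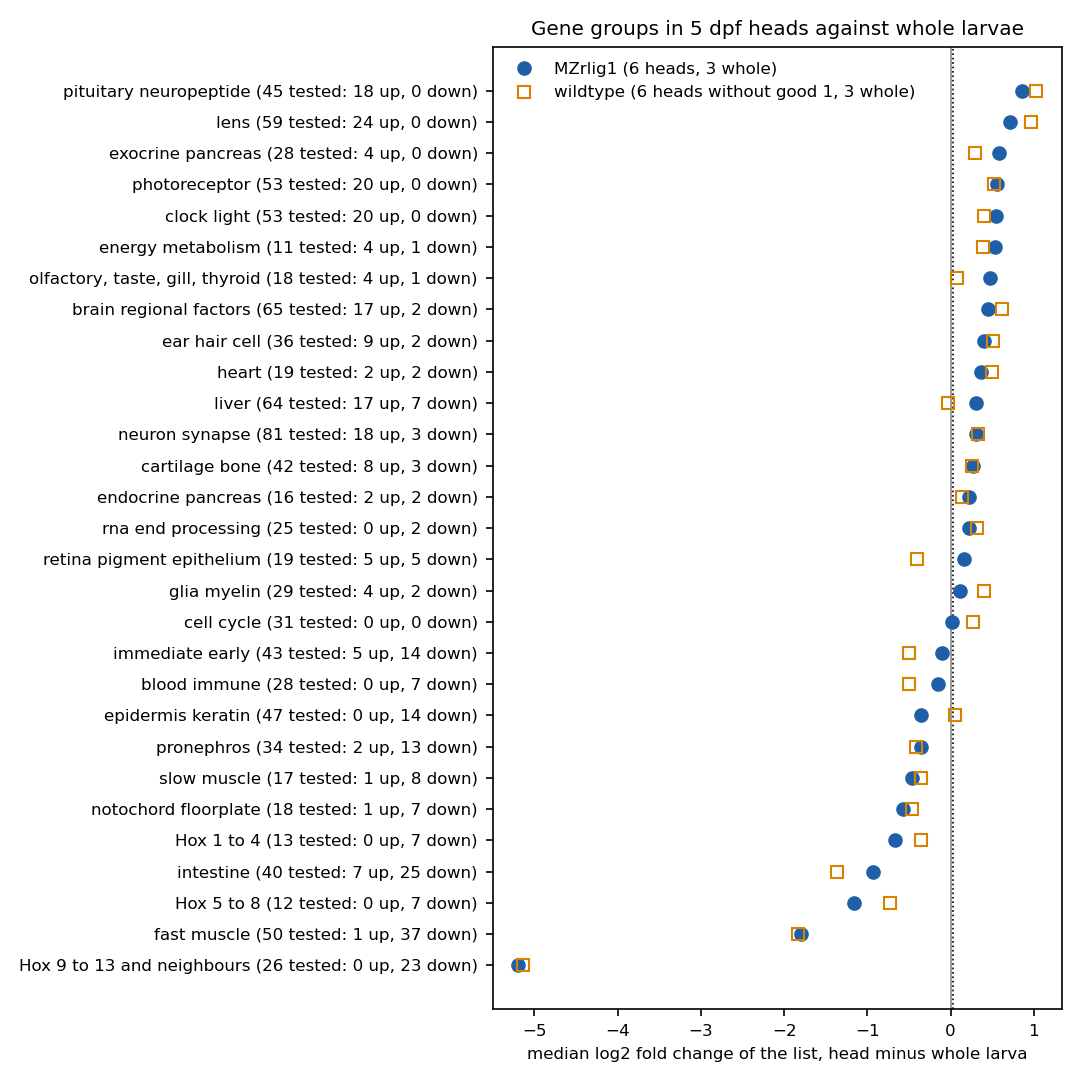
Median log2 fold change of head against whole larva for 29 gene lists, in MZrlig1 (blue circles) and in wildtype (orange squares, without the wildtype head that stands apart), with the count of list members tested, risen (up) and fallen (down) in MZrlig1. The dotted line is the median of all genes in MZrlig1, 0.03. Lists run from pituitary and neuropeptide genes at 0.85 to the posterior Hox list at -5.19.

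Genes of the light-sensing cells of the retina were higher in heads: 20 of 53 photoreceptor genes rose and none fell, with a median log2 fold change of 0.56. The gene pde6ha, which encodes an inhibitory subunit of the cone phosphodiesterase, was at 920, 1566 and 2426 CPM in heads (lowest, median and highest) and at 87.5, 99.3 and 61.1 CPM in whole pools a, b and c. Its lowest head was above its highest whole pool, and it rose by 4.28 on the log2 scale (SE 0.35, adjusted p = 6.1e-06). Both genes named ARR3, cone arrestins that shut off the opsins, also rose. ENSDARG00000056511 stood at 942, 1340 and 1967 CPM in heads against 199.9, 207 and 158 CPM (log2 fold change 2.88, SE 0.27, adjusted p = 1.9e-05). Without whole pool c 13 of the 53 rose.

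The visual pigments and transducin alpha subunit described next did not pass. OPN1SW, a short-wavelength opsin, was at 2993, 3609 and 5267 CPM in heads and at 2413, 2543 and 2376 CPM in whole larvae. The groups did not overlap, and the log2 fold change of 0.63 (SE 0.20, adjusted p = 0.055) missed the threshold. The red opsin opn1lw2 ranged from 737 to 2251 CPM in heads around a median of 1320 CPM, and was at 1816, 2130 and 1665 CPM in whole larvae. Here the groups overlapped, and the log2 difference was -0.47 (SE 0.28, adjusted p = 0.30). GNAT2, the alpha subunit of cone transducin, had a median of 836 CPM in heads and a mean of 862 ± 60.6 CPM (SD, n = 3) in whole larvae, with a log2 fold change of 0.09 (adjusted p = 0.82). Fitted log2 fold changes of the 53 genes ran from -1.54 for opn1lw1, a red opsin at low counts that did not pass (adjusted p = 0.079), to 4.28 for pde6ha.

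The pigmented epithelium behind the retina, and pigment cells, gave 5 rises and 5 falls among 19 genes, 52.6% called against 16.7% of all genes. The rises were those of rlbp1a, rlbp1b, rgrb, rdh5 and TTR, the last a plasma carrier of thyroid hormone and retinol binding protein (0.76, SE 0.21, adjusted p = 0.027). The retinol dehydrogenase gene rdh5 was at 25.9, 40.8 and 95.2 CPM in heads and 9.15, 17.6 and 11.3 CPM in whole larvae (log2 fold change 1.96, SE 0.42, adjusted p = 0.0076). Among the falls were TYR, the tyrosinase of melanin synthesis, at -1.1 on the log2 scale (SE 0.22, adjusted p = 0.0042), and LRAT, which esterifies retinol, with -1.38 (SE 0.24, adjusted p = 0.0019). Without whole pool a 1 of the 19 rose, and without pool c 2 did, while 3 of the 19 fell without pool b.

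Lens genes rose without exception among those that passed: 24 of 59 rose and none fell, with a median of 0.71. Over the whole list, the summed level ran from 29101 to 41702 CPM in heads and from 16748 to 20979 CPM in whole larvae, so the groups did not overlap. The highest member, CRYBB1, a beta crystallin of the lens fibre, was at 2988, 3539 and 4889 CPM in heads and 2014, 2233 and 1685 CPM in whole larvae (log2 fold change 0.97, SE 0.22, adjusted p = 0.0091). BFSP2, a filament protein found in lens fibres, rose by 0.98 (SE 0.20, adjusted p = 0.0060), and the alpha crystallin CRYAA by 0.75 (SE 0.15, adjusted p = 0.0047). The count fell to 14 without whole pool a and to 10 without pool c. Crystallins have near-identical copies between which reads may be split, so single copies such as crygm2f, with 1.3 (SE 0.30, adjusted p = 0.012), are uncertain.

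Genes shared by neurons rose by less, with a median of 0.31. Of 81 genes of neurons and synapses 18 rose and 3 fell, against 7.74% and 8.99% of all genes. The highest, tuba1c, a neural alpha tubulin, was at 1308, 1489 and 1962 CPM in heads and 867, 1056 and 780 CPM in whole larvae, without overlap (log2 fold change 0.77, SE 0.19, adjusted p = 0.014). The largest rise among them was that of TH, tyrosine hydroxylase of catecholamine neurons, at 7.65, 9.79 and 12.2 CPM in heads and 5.07, 3.56 and 2.02 CPM in whole larvae (1.45, SE 0.28, adjusted p = 0.0034). SLC6A5, the transporter of glycinergic neurons, which are frequent in hindbrain and spinal cord, fell by a small amount, from 101, 88.1 and 102 CPM in whole larvae to a head median of 68.3 CPM (-0.46, SE 0.11, adjusted p = 0.014). DDC, the decarboxylase that makes dopamine and serotonin, also fell (-0.61, SE 0.17, adjusted p = 0.026). Of 9 genes taken as brain markers, 1 rose and none fell. Among those that did not pass was ELAVL3, with overlapping groups. It was at 90.2, 235 and 289 CPM in heads and 289, 153 and 305 CPM in whole larvae (-0.19, SE 0.31, adjusted p = 0.75). The count of 18 was 10, 9 and 6 without whole pools a, b and c, and 11 without good-behaviour head 2, and no fall passed without pool a or pool c, and 1 without good-behaviour head 2 or bad-behaviour head 3.

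Transcription factors that mark regions of the brain and eye gave 17 rises and 2 falls among 65, with a median of 0.44. FEZF2, a factor of the forebrain, was at 18.9, 21.4 and 34.2 CPM in heads and at 10.5, 14.6 and 11.8 CPM in whole larvae (0.93, SE 0.21, adjusted p = 0.0089). VSX1, a factor of retinal bipolar cells and spinal interneurons, rose by 0.90 (SE 0.23, adjusted p = 0.020). The fall among members with enough counts was in egr2a, a zinc finger factor with a role in the hindbrain, whose groups overlapped (-0.96, SE 0.31, adjusted p = 0.049). These calls rest on few pools: 3 of the 65 rose without whole pool a, 9 without pool b, 1 without pool c, 8 without good-behaviour head 2 and 11 without bad-behaviour head 3.

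Hormone and neuropeptide genes had the highest median of the lists, 0.85, with 18 of 45 risen and none fallen. The gene pmchl, which encodes a melanin-concentrating hormone precursor of the hypothalamus, was at 8.37, 12.6 and 14.8 CPM in heads and at 1.61, 1.41 and 0.418 CPM in whole larvae (log2 fold change 3.36, SE 0.38, adjusted p = 7.5e-05). The oxytocin gene oxt was at 6.38, 8.43 and 24.3 CPM against 1.61, 3.19 and 2.51 CPM (2.22, SE 0.47, adjusted p = 0.0064), its highest value lying in good-behaviour head 3. Both peptides had heads and whole larvae that did not overlap. Of 4 hormones of the anterior and intermediate pituitary, growth hormone gh1 rose by 1.24 (SE 0.23, adjusted p = 0.0032) and prolactin prl by 1.58 (SE 0.42, adjusted p = 0.024), while POMC (0.68, adjusted p = 0.091) and TSHB (1.62, adjusted p = 0.24), the latter at most 1.11 CPM in any head, did not pass. Without whole pool a or pool c, 10 of the 45 rose.

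Among 29 glial genes 4 rose and 2 fell, 20.7% called against 16.7% of all genes, with a median of 0.11, so the count is near that of all genes and only single members are described. The lipocalin-type prostaglandin D synthase gene ptgdsb.1, whose mammalian counterpart is made in the meninges and choroid plexus, was at 446, 682 and 944 CPM in heads and 51.4, 63.1 and 49.5 CPM in whole larvae (3.62, SE 0.25, adjusted p = 1.7e-06). Its neighbour in name, ptgdsb.2, rose by 3.47 (SE 0.29, adjusted p = 7.3e-06), and reads of the pair may be shared. GFAP, the filament protein of astroglia, moved the other way, at 13.8, 24.2 and 43.3 CPM in heads and 198, 224 and 186 CPM in whole larvae (-2.94, SE 0.26, adjusted p = 1.2e-05). All heads lay below all whole pools for GFAP. The list held 1 fall in place of 2 without whole pool a, pool b or any single head but good-behaviour head 3. The myelin gene mbpb fell by 0.46 on the log2 scale (SE 0.14, adjusted p = 0.039), a value that turned to 0.30 when gene lengths differing between the 2 count tables were allowed for. In bulk RNA, fewer cells of a type and less RNA per cell cannot be told apart, here and for every organ below.

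The jaw and gills of the head carry cartilage and early bone, and 8 of 42 such genes rose while 3 fell, with a median of 0.27. MATN1, a matrilin of cartilage matrix, was at 297, 445 and 495 CPM in heads and 137, 179 and 140 CPM in whole larvae (1.43, SE 0.21, adjusted p = 0.00061). COL10A1 (ENSDARG00000054753), a collagen of hypertrophic cartilage and of osteoblasts in fish, rose by the same amount (1.43, SE 0.26, adjusted p = 0.0027). Single collagens fell. The skin and bone gene col1a1a went from 2628, 3010 and 2980 CPM in whole larvae to a head median of 1607 CPM (-0.98, SE 0.21, adjusted p = 0.0068). The notochord gene col9a1b fell by 2.59 on the log2 scale (SE 0.14, adjusted p = 3.4e-07). Both genes named COL2A1 leaned the other way and did not pass (ENSDARG00000069093, 0.64, adjusted p = 0.080, and ENSDARG00000011407, 0.23, adjusted p = 0.38). Over all genes 8.99% fell. The count of rises was 4 without whole pool a, 4 without pool b and 3 without pool c, and 5 without good-behaviour head 2, bad-behaviour head 1 or bad-behaviour head 3.

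In the inner ear and its hair cells, 9 of 36 genes rose and 2 fell, with a median of 0.40. That is 30.6% called against 16.7% of all genes. The gene otomp, whose protein is part of the otolith matrix, was at 18.3, 40.4 and 45.8 CPM in heads and 12.5, 18.1 and 18 CPM in whole larvae (1.18, SE 0.26, adjusted p = 0.0086). OTOGL, an otogelin-like protein of the membranes that cover hair cells, rose by 1.29 (SE 0.32, adjusted p = 0.016), with its lowest head, bad-behaviour head 2, inside the range of the whole pools. None of the 36 rose without whole pool a, 5 did without pool b and 3 without pool c.

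The thyroid lies under the jaw, and genes of its hormone synthesis, TG and SLC5A5, rose, while the thyroid and kidney factor PAX8 did not pass (0.21, adjusted p = 0.70, groups overlapping). Thyroglobulin, TG, the precursor of thyroid hormone, was at 46.2, 76.5 and 96.6 CPM in heads and 18.6, 15.5 and 17.0 CPM in whole larvae, without overlap (2.17, SE 0.21, adjusted p = 2.5e-05). SLC5A5, the iodide transporter of thyroid cells, was at 1.11, 1.68 and 1.71 CPM in heads and 0.461, 0.371 and 0.209 CPM in whole larvae (2.09, SE 0.40, adjusted p = 0.0036). It was named after its values were seen. In the list of olfactory, taste, gill, thymus and thyroid genes that holds them, 4 of 18 rose and 1 fell, with 2 rises left without whole pool a or pool c. That is 27.8% called against 16.7% of all genes, over few genes. An olfactory marker protein gene, OMP (ENSDARG00000105218), rose by 1.34 (SE 0.32, adjusted p = 0.012). The fall was that of ccl25a, a chemokine of thymus and gut, at 7.55, 12.5 and 14.0 CPM in heads and 33.1, 26.8 and 30.2 CPM in whole larvae (-1.39, SE 0.19, adjusted p = 0.00029).

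Hox genes were lower in heads. Of 47 tested, 36 fell and none rose, set against 8.99% of all genes that fell. In groups 9 to 13, 22 of 22 fell with a median log2 fold change of -5.21, in groups 5 to 8 it was 7 of 12 with a median of -1.16, and in groups 1 to 4 it was 7 of 13 with a median of -0.66. Without whole pool b, 4 of the 12 in groups 5 to 8 fell, and with good-behaviour heads alone 4 of these 12 and 3 of the 13 in groups 1 to 4.

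**Figure D2:**
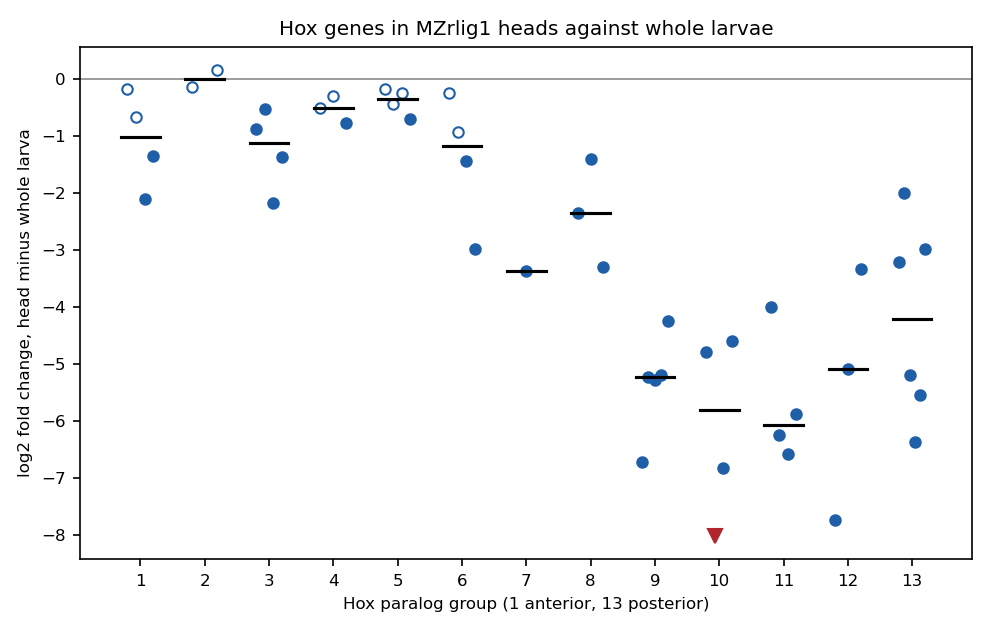
Log2 fold change of head against whole larva in MZrlig1 for each of 47 Hox genes, by paralog group; filled points fell, open points did not pass, and black bars are group medians. The red triangle is hoxb10a, with no head count, drawn at its bound of -8.01. Group 2 has a median of 0.01 and group 11 one of -6.06.

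The 2 hindbrain genes of group 2 did not pass. hoxa2b, which patterns the second pharyngeal arch and rhombomeres, was at 5.28, 6.72 and 7.43 CPM in heads and 6.69, 8.83 and 5.98 CPM in whole larvae (-0.14, SE 0.20, adjusted p = 0.70). HOXB2 was at 9.72, 10.9 and 13.5 CPM in heads and 11.9, 9.87 and 9.05 CPM in whole larvae (0.16, SE 0.18, adjusted p = 0.61). For both genes the groups overlapped. HOXB3, of the posterior hindbrain and the highest anterior Hox gene, was at 45.2, 49.5 and 65.3 CPM in heads and 76.6, 71.6 and 71.6 CPM in whole larvae, a fall without overlap (-0.52, SE 0.13, adjusted p = 0.017). It was the smallest of 4 falls among the 4 group 3 genes, whose median was -1.12 and whose lowest, hoxc3a, was -2.17. In group 1, 2 of 4 fell, the lower being hoxb1b at -2.1.

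In group 5, 1 of 4 genes fell, HOXC5 (-0.70, SE 0.20, adjusted p = 0.033). The 2 genes named HOXB5 had log2 fold changes of -0.44 (ENSDARG00000013057, adjusted p = 0.12) and -0.24 (ENSDARG00000054030, adjusted p = 0.51). In group 6, 2 of 4 fell, with a median of -1.18, and the lower of them was at -2.98 (ENSDARG00000101954, SE 0.33, adjusted p = 6.8e-05). All 4 genes of groups 7 and 8 fell. HOXB7 was at 0.618, 1.05 and 1.79 CPM in heads and 10.1, 14.8 and 9.53 CPM in whole larvae (-3.36, SE 0.30, adjusted p = 9.9e-06). HOXB8 was at 2.33, 5.45 and 8.59 CPM in heads and 31.2, 32.3 and 21.9 CPM in whole larvae (-2.35, SE 0.30, adjusted p = 0.00022).

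The posterior genes were close to absent from heads. HOXB9 was at 0, 0.576 and 0.954 CPM in heads and 21.1, 26.2 and 17.5 CPM in whole larvae (-5.27, SE 0.42, adjusted p = 5.1e-06). hoxb10a had no count in the 6 heads together and 392 counts in the 3 whole pools, at least 258-fold lower in heads against a floor of 3 counts over the group (adjusted p = 1.5e-05). One of the HOXC12 genes, ENSDARG00000070352, had 2 counts in heads and 278 in whole larvae, a ratio of whole to head of 275 with a counting interval of 75.3 to 2280. The smallest fall of groups 9 to 13 was that of hoxa13b, a gene of the tail, at 0.417, 0.682 and 1.55 CPM in heads and 2.92, 3.56 and 2.99 CPM in whole larvae (-2.0, SE 0.37, adjusted p = 0.0027). Summed over the 7 genes that mark the posterior body, group 12 and 13 Hox genes and cdx4, heads had 0.649 to 1.69 CPM and whole larvae 19.6 to 23.6 CPM. These sums use TMM over all 19 libraries of 5 dpf. In the list of posterior genes that also holds cdx4, EVX2, TBX4 and TBX5, the latter 3 did not pass. EVX2, which also marks interneurons, stood at 10.4, 11.6 and 17.7 CPM in heads and 15.7, 10.7 and 12.9 CPM in whole larvae, an overlap with a log2 fold change of -0.06 (adjusted p = 0.89).

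Muscle genes fell more often than they rose. Of 50 fast muscle genes, 37 fell and 1 rose, with a median of -1.80. Their summed level was 20954 to 36667 CPM in heads and 108845 to 117452 CPM in whole larvae, without overlap. The highest, actc1b, a striated muscle actin, was at 4726, 6031 and 7651 CPM in heads and 19426, 24159 and 19516 CPM in whole larvae (-1.76, SE 0.22, adjusted p = 0.00014).

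Single myosin genes fell far more than the list. The fast myosin heavy chain gene myhz1.3 was at 9.17, 12.4 and 14.6 CPM in heads and 1975, 1898 and 2070 CPM in whole larvae, 163-fold lower by the means (-7.35, SE 0.19, adjusted p = 4.4e-10). igfn1.3, of a family of muscle proteins with immunoglobulin and fibronectin domains, was at 2.83, 4.91 and 6.29 CPM in heads and 227, 229 and 236 CPM in whole larvae (-5.58, SE 0.20, adjusted p = 6.7e-09). TNNI2 (ENSDARG00000029069), a fast troponin I, fell by 3.94 on the log2 scale (SE 0.27, adjusted p = 1.6e-06). The tandem myosin copies may share reads. The 1 rise was that of ENSDARG00000099730, one of the genes named PKM, a pyruvate kinase, at 469, 578 and 799 CPM in heads and 261, 282 and 240 CPM in whole larvae (1.19, SE 0.18, adjusted p = 0.00075).

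Slow muscle genes fell in 8 of 17 cases and rose in 1, with a median of -0.47. The slow myosin gene smyhc1 was at 187, 271 and 411 CPM in heads and 983, 1196 and 1083 CPM in whole larvae (-1.94, SE 0.20, adjusted p = 3.6e-05). The calcium pump gene atp2a2a, which heart also uses, rose from 43.1, 43.0 and 53.2 CPM to a head median of 103 CPM (1.09, SE 0.19, adjusted p = 0.0016), its lowest head, at 62.2 CPM, being bad-behaviour head 2.

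Heart genes were not lower in heads as a list. MYL7, a cardiac myosin light chain, was at 27.6, 34.5 and 43.9 CPM in heads and 30.5, 34.8 and 27.4 CPM in whole larvae, overlapping (0.18, SE 0.17, adjusted p = 0.54). Of 19 heart genes 2 rose and 2 fell, with a median of 0.37. That is 21.1% called against 16.7% of all genes, so the count is near that of all genes. MYH7 rose by 0.70 (SE 0.17, adjusted p = 0.015) and cmlc1, a cardiac light chain, by 0.78 (SE 0.21, adjusted p = 0.022). Neither rise remained without whole pool a or without pool c, and 1 fall passed without any single whole pool, good-behaviour head 2 or bad-behaviour head 2, 3 or 4. The falls were of actc1a, an actin shared with skeletal muscle (-0.63, SE 0.20, adjusted p = 0.049), and of GATA5, a factor of heart and gut (-1.02, SE 0.17, adjusted p = 0.0016). Only 71.4% of the heart list's names were found in the tables.

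The notochord and floor plate list held 7 falls and 1 rise among 18, with a median of -0.57. The notochord gene cmn was at 2.59, 6.81 and 9.36 CPM in heads and 88.3, 92.8 and 116 CPM in whole larvae (-3.97, SE 0.30, adjusted p = 3.8e-06). tbxta, the Brachyury factor of the notochord, was at 0.250, 0.966 and 1.13 CPM in heads and 10.5, 15.4 and 8.77 CPM in whole larvae (-3.73, SE 0.33, adjusted p = 9.7e-06). Another marker, ntd5, went against its list, at 67.8, 81.4 and 127 CPM in heads and 41.1, 51.2 and 42.2 CPM in whole larvae (0.94, SE 0.20, adjusted p = 0.0064).

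Genes of the kidney differed widely among themselves. Of 34 pronephros genes 13 fell and 2 rose, with a median of -0.36. NPHS1, nephrin of the glomerular filter at the front of the kidney, was at 3.00, 3.69 and 4.70 CPM in heads and 3.00, 3.26 and 3.69 CPM in whole larvae (0.19, SE 0.23, adjusted p = 0.64). Transporters of the distal tubule were at the floor in heads: SLC12A3, the thiazide-sensitive cotransporter, was at 0, 0.0281 and 0.250 CPM in heads and 24.5, 22 and 27.2 CPM in whole larvae (-8.29, SE 0.43, adjusted p = 2.7e-07). SLC12A1, its relative of the early distal tubule, fell by 5.95 on the log2 scale (SE 0.52, adjusted p = 9.7e-06). A smaller fall was that of CDH17, a cadherin of tubule and gut, at 47.1, 72.8 and 95.6 CPM in heads and 187, 190 and 192 CPM in whole larvae (-1.39, SE 0.19, adjusted p = 0.00032). The endocytic receptor gene lrp2b was at 0, 0.182 and 0.537 CPM in heads and 28.7, 19.8 and 28.0 CPM in whole larvae (-6.69, SE 0.41, adjusted p = 8.2e-07).

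Intestinal genes also differed among themselves. Of 40 intestinal genes, 25 fell and 7 rose, with a median of -0.94, and 77.8% of the list's names were found. Their summed level overlapped between the groups, at 2291 to 4228 CPM in heads and 3234 to 3426 CPM in whole larvae. FABP6, the bile acid binding protein of the ileum, had 3 counts in the 6 heads and 4159 in the whole pools, a ratio of whole to head of 2740 with a counting interval of 937 to 13290 (adjusted p = 8.2e-10). Its values in whole pools were 86.9, 134 and 85.5 CPM. The bile acid transporter of the same segment, SLC10A2, named after its values were seen, was at 0.444, 0.880 and 1.12 CPM in heads and 19.4, 19.7 and 20.1 CPM in whole larvae (-4.57, SE 0.24, adjusted p = 2.7e-07).

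General enterocyte genes fell by less. FABP2, the intestinal fatty acid binding protein, was at 207, 281 and 372 CPM in heads and 401, 613 and 378 CPM in whole larvae, a narrow gap (-0.74, SE 0.21, adjusted p = 0.027). VIL1, the villin of the brush border, fell by 0.85 on the log2 scale (SE 0.15, adjusted p = 0.0024), and cdx1b, a hindgut and midgut factor, by 2.28 (SE 0.19, adjusted p = 6.2e-06). Among the rises, chia.2, a chitinase, was at 541, 779 and 1173 CPM in heads and 388, 375 and 370 CPM in whole larvae (1.09, SE 0.25, adjusted p = 0.0097). CYP24A1, the enzyme that inactivates vitamin D, was at 11.4, 17.2 and 59.9 CPM in heads and 8.07, 5.56 and 7.17 CPM in whole larvae (2.02, SE 0.53, adjusted p = 0.022). The 7 rises became 3 without whole pool a and 2 without pool c.

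**Figure D3:**
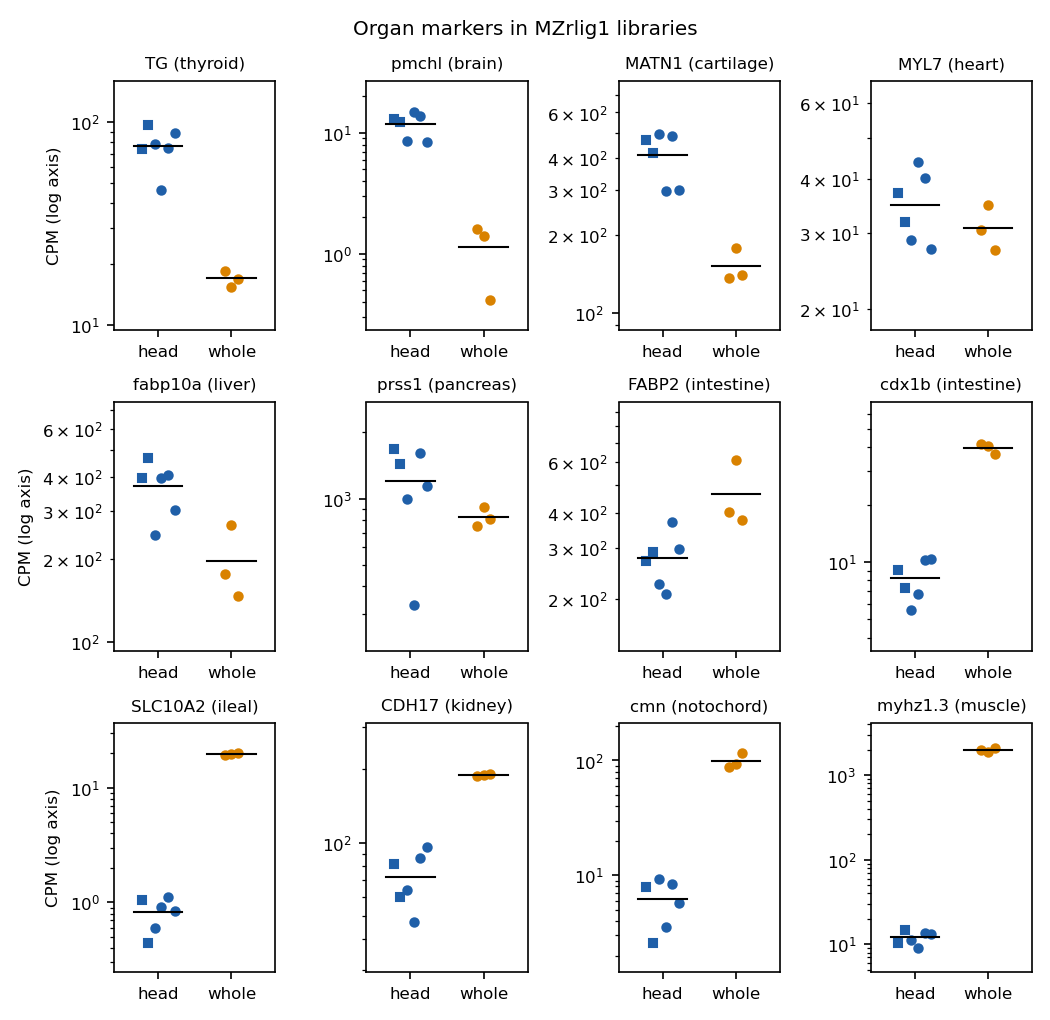
CPM of 12 organ markers in each of the 6 MZrlig1 heads (blue; squares good behaviour, circles bad behaviour) and 3 whole pools (orange), on log axes, with black bars at group means. TG, pmchl and MATN1 lie higher in heads, MYL7 and prss1 overlap between groups, and SLC10A2, CDH17, cmn and myhz1.3 lie lower in every head than in any whole pool.

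The label "head" did not mean absence of liver and pancreas. Liver genes gave 17 rises and 7 falls among 64, with a median of 0.31, and their summed level was 15793 to 21452 CPM in heads and 16758 to 17983 CPM in whole larvae. The hepatocyte marker fabp10a was at 245, 396 and 470 CPM in heads and 177, 266 and 147 CPM in whole larvae, overlapping in 1 pair (0.91, SE 0.24, adjusted p = 0.021). The transferrin gene tfa was at 1190, 1318 and 2057 CPM against 1602, 2034 and 1648 CPM (-0.30, SE 0.20, adjusted p = 0.35). The count of 17 was 8 without whole pool a, 9 without pool c, 11 without good-behaviour head 2 and 26 without bad-behaviour head 1.

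Among liver genes, ahsg2, of the fetuin family of plasma glycoproteins, had the largest rise. It was at 43.8, 57.9 and 74.4 CPM in heads and 1.23, 2.08 and 0.974 CPM in whole larvae, 40.4-fold higher (5.33, SE 0.29, adjusted p = 3.8e-07). TAT, which starts the breakdown of tyrosine, was at 98.5, 156 and 283 CPM in heads and 26.0, 35.9 and 25.8 CPM in whole larvae (2.63, SE 0.35, adjusted p = 0.00029). The apolipoproteins apoea and apoa1a fell by the same amount, 1.95 on the log2 scale, with adjusted p of 0.00012 and 5.3e-05. Both genes are also used in the yolk syncytial layer.

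Exocrine pancreas genes rose in 4 of 28 cases and fell in none, with a median of 0.58, and 72.7% of names were found. That is 14.3% called against 16.7% of all genes, so the list was not called more often than genes at large. The trypsin gene prss1 was at 330, 1288 and 1675 CPM in heads and 750, 915 and 811 CPM in whole larvae (0.54, SE 0.38, adjusted p = 0.39). The low value was that of bad-behaviour head 2, and the list's summed level was 2906 CPM there, with a median of 11702 CPM over heads and 5923 to 7022 CPM in whole larvae. Without that head 16 of the 28 rose, and 2 did without whole pool a or pool b. amy2a, the pancreatic amylase, was at 77.8, 361 and 539 CPM in heads and 29.4, 29.9 and 34.6 CPM in whole larvae (3.49, SE 0.53, adjusted p = 0.00071).

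Islet hormones overlapped between the groups. Insulin, ins, was at 5.92, 19.9 and 34 CPM in heads and 12.3, 18.2 and 16.1 CPM in whole larvae (0.37, SE 0.38, adjusted p = 0.56). Glucagon, gcga (0.07, adjusted p = 0.91), and somatostatin, sst2 (-0.02, adjusted p = 0.98), did not pass either, and all 3 were lowest among heads in bad-behaviour head 2. In the endocrine pancreas list 2 of 16 rose, none of them without whole pool a or pool c, and 2 fell. That is 25% called against 16.7% of all genes, over few genes.

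Clock and light-responsive genes rose in 20 of 53 cases and fell in none, with a median of 0.55. PER2, the light-induced period gene, was at 159, 264 and 305 CPM in heads and 8.00, 7.42 and 9.88 CPM in whole larvae, 29.5-fold higher (4.88, SE 0.25, adjusted p = 2.7e-07). The photolyase gene cry5 was at 25.8, 39.4 and 52.5 CPM in heads and 4.15, 5.04 and 3.76 CPM in whole larvae (3.19, SE 0.26, adjusted p = 5.6e-06). DDB2, which recognises UV damage in DNA, was at 29.9, 48.9 and 70.8 CPM against 7.53, 8.75 and 6.82 CPM (2.71, SE 0.25, adjusted p = 1.6e-05). None of the 3 overlapped between groups.

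Other risen members have related roles. One of the genes named CRY1 (ENSDARG00000045768), a cryptochrome repressor, was at 175, 217 and 244 CPM in heads and 42.9, 38.1 and 41.1 CPM in whole larvae (2.4, SE 0.15, adjusted p = 9.8e-07). The factor nfil3-6 rose by 2.38 (SE 0.20, adjusted p = 6.2e-06), cry-dash, of the cryptochrome and photolyase family, by 2.1 (SE 0.23, adjusted p = 5.2e-05), and the damage sensor XPC by 1.76 (SE 0.20, adjusted p = 8.2e-05). tefa, a PAR-domain factor that acts in the light response of zebrafish cells, was at 244, 256 and 325 CPM in heads and 92.5, 98.1 and 94.8 CPM in whole larvae (1.53, SE 0.15, adjusted p = 2.3e-05). The base excision enzyme NEIL1 rose by 1.37 (SE 0.27, adjusted p = 0.0042).

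The BMAL1 and CLOCK genes, which encode activators of the clock, did not pass, nor did PER3 and NR1D1. The 2 BMAL1 genes had log2 fold changes of -0.05 (ENSDARG00000035732, adjusted p = 0.92) and 0.00 (ENSDARG00000006791), and the 2 CLOCK genes -0.50 (ENSDARG00000011703, adjusted p = 0.49) and -0.26 (ENSDARG00000003631, adjusted p = 0.66). PER3 was at 26.8, 76.5 and 113 CPM in heads and 71.9, 37.3 and 66.4 CPM in whole larvae (0.42, SE 0.35, adjusted p = 0.47). The nuclear receptor NR1D1 was at 87.7, 318 and 422 CPM in heads and 157, 124 and 143 CPM in whole larvae (1.1, SE 0.37, adjusted p = 0.063). For both, good-behaviour head 3 was the lowest head and lay below all whole pools. Of the 53 genes, 12 rose without whole pool a or without pool c and 15 with the good-behaviour heads alone, which also turned PER3, not passing in either, to -0.23. Head and light regime differ together in this comparison, so that their parts in these rises cannot be told apart.

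**Figure D4:**
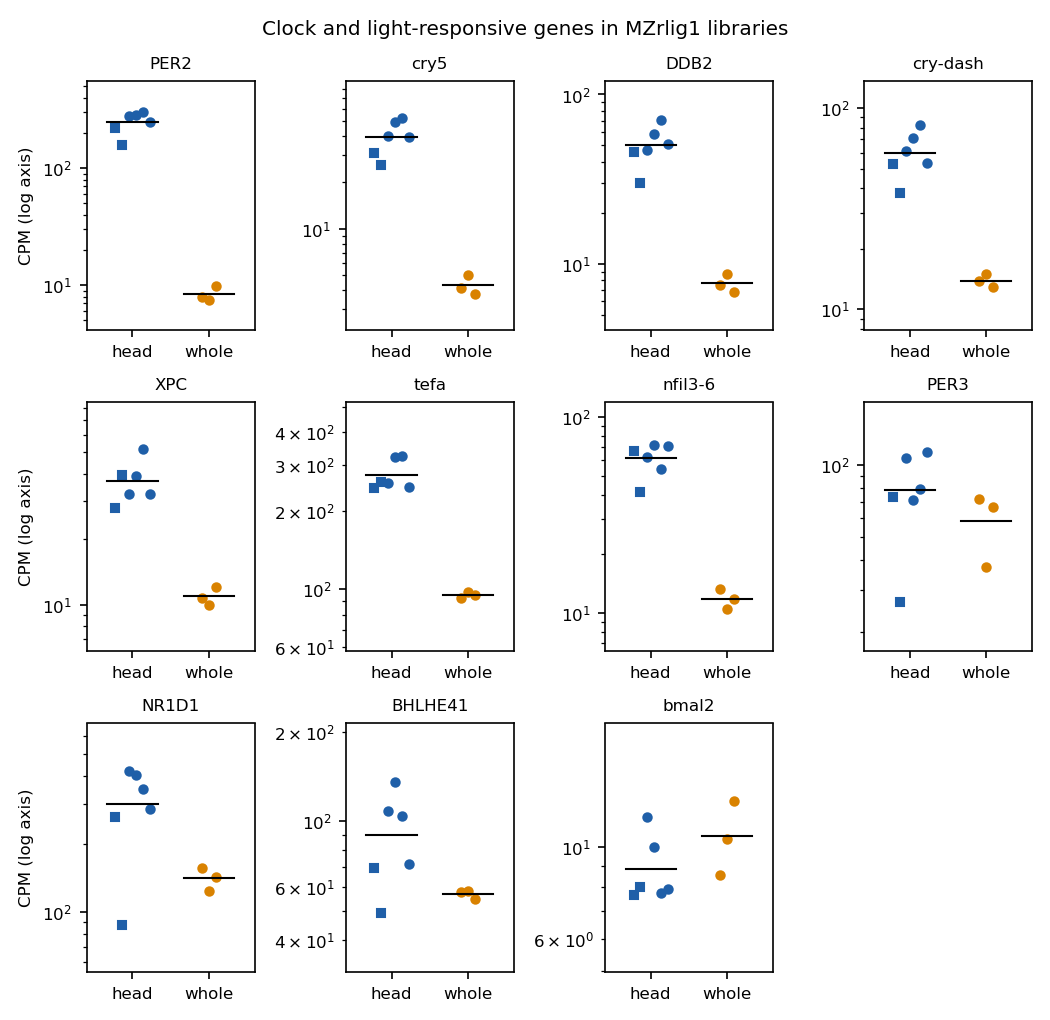
CPM of 11 clock and light-responsive genes in each of the 6 MZrlig1 heads (blue; squares good behaviour, circles bad behaviour) and 3 whole pools (orange), on log axes, with black bars at group means. In the first 7 panels, PER2 to nfil3-6, every head lies above every whole pool; in the last 4, PER3, NR1D1, BHLHE41 and bmal2, the groups overlap, with good-behaviour head 3 the lowest head for PER3, at 26.8 CPM, and NR1D1, at 87.7 CPM.

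Genes induced within minutes of a stimulus had a median of -0.11. Of 43 such genes 14 fell and 5 rose, against 8.99% and 7.74% of all genes. BTG2, an antiproliferative gene, was at 30.4, 34.6 and 49.1 CPM in heads and 148, 172 and 120 CPM in whole larvae (-1.98, SE 0.16, adjusted p = 6.4e-06). NR4A1, an orphan nuclear receptor, was at 11.0, 16.4 and 18.8 CPM against 49.1, 57.6 and 41.8 CPM (-1.64, SE 0.17, adjusted p = 2.8e-05). The rises included fosaa, a Fos family factor, at 3.11, 6.84 and 10.1 CPM in heads and 2.38, 2.15 and 2.57 CPM in whole larvae (1.51, SE 0.35, adjusted p = 0.012), and the neurotrophin BDNF (1.28, SE 0.18, adjusted p = 0.00040). The 5 rises became 3 without whole pool b or pool c.

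Blood and skin genes that passed were all lower in heads. Among blood and immune genes 7 of 28 fell and none rose, with a median of -0.15 and 71.7% of names found. The alpha globin hbae3 was at 149, 182 and 281 CPM in heads and 360, 644 and 376 CPM in whole larvae (-1.22, SE 0.22, adjusted p = 0.0027), and hbae1.1 at 9.33, 19.8 and 33.7 CPM against 88.3, 121 and 83.6 CPM (-2.22, SE 0.29, adjusted p = 0.00021). Globin copies may share reads. Of 47 epidermal genes 14 fell and none rose, with a median of -0.35, and 9 fell without whole pool a or pool b. The lectin gene lgals1l1 was at 6.29, 11.2 and 15.5 CPM in heads and 57.3, 70.3 and 60.26 CPM in whole larvae (-2.51, SE 0.22, adjusted p = 1.1e-05). The type II keratin krt4 overlapped, at 5607, 6199 and 9274 CPM and 9363, 12788 and 8782 CPM (-0.59, SE 0.23, adjusted p = 0.094).

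Cell cycle genes did not pass in either direction, 0 of 31 in edgeR's test with a median of 0.02, and 2 rose by DESeq2's Wald test. The sliding clamp gene PCNA was at 185, 226 and 283 CPM in heads and 180, 239 and 179 CPM in whole larvae (0.22, adjusted p = 0.43). Of 17 germline genes only TDRD9 had the counts to be tested, at a log2 fold change of -0.12.

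With a median of 0.22, 25 tested genes of RNA end processing and tRNA splicing gave 8% called, below the 16.7% of all genes. Only single members are therefore described, and of the 25, 2 fell and none rose. They were pnkp, the kinase and phosphatase of nucleic acid ends, at 9.21, 10.9 and 13.8 CPM in heads and 16.1, 18.7 and 16.3 CPM in whole larvae (-0.58, SE 0.16, adjusted p = 0.029), and TPRKB, a partner of a tRNA-modifying kinase, at 3.41, 5.38 and 6.59 CPM against 9.38, 9.42 and 9.46 CPM (-0.84, SE 0.21, adjusted p = 0.016). Neither passed when any single whole pool was left out. XBP1, whose messenger RNA is spliced by a tRNA-type ligase, was the highest of the list at 181, 219 and 363 CPM in heads and 175, 218 and 170 CPM in whole larvae (0.32, SE 0.21, adjusted p = 0.35). In energy metabolism 4 of 11 rose and 1 fell, 45.5% called against 16.7% of all genes, over few genes. The brain creatine kinase CKB (ENSDARG00000043257) was at 1376, 1705 and 2260 CPM in heads and 877, 1076 and 791 CPM in whole larvae (0.96, SE 0.21, adjusted p = 0.0081).

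Wildtype larvae gave the same direction for most of these genes. Of the 3483 genes that passed in MZrlig1, 3348 (96.1%) had a wildtype log2 fold change of the same sign. The matching share among all genes tested was not counted. Across 21515 genes tested in the 19 libraries of 5 dpf, the log2 fold changes of the genotypes had a Pearson r of 0.63 and a Spearman rho of 0.68, given as a description across genes, which are not independent. The median of the posterior Hox genes in wildtype was -5.56 without good-behaviour wildtype head 1. That head carried 6.35 CPM of the posterior body markers against 0.705 to 1.5 CPM in the other wildtype heads, and wildtype medians here leave it out. The pigment epithelium, liver and epidermal lists had medians of opposite sign in the genotypes. With all wildtype heads the liver median was instead 0.04, of the same sign as in MZrlig1. The medians of these lists were 0.16, 0.31 and -0.35 in MZrlig1 and -0.41, -0.03 and 0.06 in wildtype without that head. In the other lists the signs of the medians matched. PER2 had a wildtype log2 fold change of 4.66, pde6ha of 4.78, ahsg2 of 5.26 and myhz1.3 of -5.51 in that fit. The test for a difference between genotypes, made with all 19 libraries, passed for none of the 4 (interaction adjusted p of 0.97, 0.94, 1.0 and 0.31). Not passing does not show that the changes are equal.

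**Figure D5:**
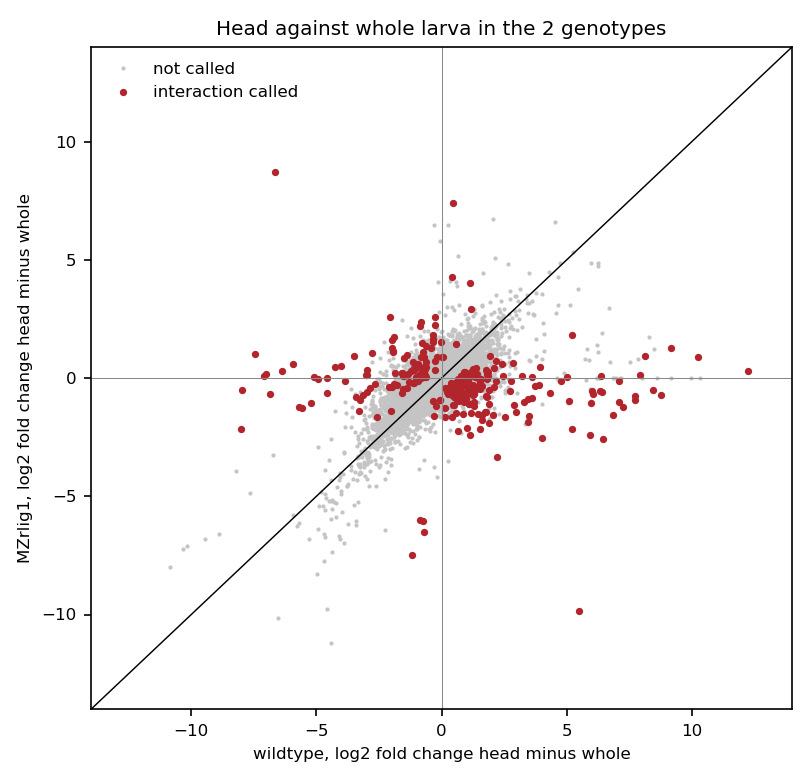
Log2 fold change of head against whole larva for each of 21515 genes in wildtype (x axis) and MZrlig1 (y axis), with the 283 genes whose difference between genotypes passed in red and the line of equal values in black. In 210 of the 283 the wildtype change is the larger in size.

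The difference between genotypes was tested as an interaction of tissue and genotype. The values given are the MZrlig1 minus the wildtype log2 fold change. It passed for 283 of 21515 genes, 1.32%, with 106 higher and 177 lower in MZrlig1. Of these, 90 (31.8%) are also among the 3483 that passed between heads and whole larvae of MZrlig1, of which they form 2.58%. In 210 of the 283 (74.2%) the wildtype change was the larger in size, as it was in 58.7% of all genes. In 30 a group mean was 0. The count was 165, 187 and 183 without MZrlig1 whole pools a, b and c and 166, 166 and 174 without the wildtype ones.

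The genes with the smallest p show patterns in single genotypes and tissues. The clone-named gene si:ch211-59h6.1 had no count in the 3 wildtype whole pools and was at 3.24 to 4.62 CPM in wildtype heads, 2.81 to 4.95 CPM in MZrlig1 heads and 5.54, 6.79 and 5.91 CPM in MZrlig1 whole pools. Its interaction of -9.48 (SE 0.59, adjusted p = 1.2e-07) depends on how a group of zeros is treated and is no measure of size. cdh29, a cadherin, was at 13.1 to 26.7 CPM in wildtype heads and 0.540 to 1.04 CPM in wildtype whole pools, but 2.62 to 4.64 CPM in MZrlig1 heads and 5.08, 3.2 and 2.64 CPM in MZrlig1 whole pools (-4.88, SE 0.41, adjusted p = 1.8e-06). Heads and whole larvae thus differed in wildtype and overlapped in MZrlig1.

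SEPHS1, of the selenophosphate synthetase family, turned its direction with little spread. In MZrlig1 it was at 56.9 ± 1.86 CPM in heads (SD, n = 6) and 41.1 ± 1.86 CPM in whole larvae (n = 3), and in wildtype at 38.4 ± 1.55 CPM in heads (n = 7) and 62.4 ± 4.29 CPM in whole larvae (n = 3). The interaction was 1.17 (SE 0.11, adjusted p = 4.7e-06). cyp2k8, a cytochrome P450, was at 1.71 ± 0.560 and 5.4 ± 1.35 CPM in MZrlig1 heads and whole larvae and at 6.22 ± 1.23 and 1.06 ± 0.228 CPM in the wildtype ones (-4.18, SE 0.40, adjusted p = 7.7e-06). ENSDARG00000002217, one of the genes named SCOC, was at 87.5 ± 9.02 CPM in wildtype heads and between 29.5 and 40.3 CPM on average in the other groups (-1.89, SE 0.19, adjusted p = 8.0e-06). TNFRSF19, a receptor of the tumour necrosis factor family, differed in the same direction (-1.36, SE 0.14, adjusted p = 2.1e-05).

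The other genes with the smallest p were lower in wildtype heads than in any other group. si:dkey-7i4.12 was at 0.970 ± 0.313 CPM there and at 8.21 ± 1.06, 7.51 ± 1.1 and 7.70 ± 0.450 CPM in MZrlig1 heads, MZrlig1 whole larvae and wildtype whole larvae (3.1, SE 0.30, adjusted p = 8.0e-06). ENSDARG00000056909 was at 0.215 ± 0.138 CPM there and at 5.42 CPM or more on average elsewhere (4.58, SE 0.45, adjusted p = 8.0e-06). si:ch211-108d22.2 and si:dkeyp-116a7.2 each had an interaction of 2.39 (SE 0.27, adjusted p = 4.9e-05 and 6.5e-05). Names of this form are genomic clones and carry no known role here.

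Over all genes tested the interaction passed for 1.32%. Within the lists it passed for 4 of 47 epidermal genes, and for 0 to 1 in each other list, of up to 81 genes tested. They were the keratin krt17 and cyt1, a type I cytokeratin, which fell in MZrlig1 and had wildtype log2 fold changes of 0.70 and 1.03, and epcam, an epithelial adhesion protein, and krt93, which did not pass in MZrlig1 and had 1.82 and 2.13. These 4 were named after their values were seen. CLP1, an RNA kinase of the tRNA splicing complex, had a log2 fold change of -0.45 in MZrlig1 (adjusted p = 0.21) and 1.52 in wildtype (interaction adjusted p = 0.00048), and no other RNA end processing gene passed. It was likewise named after its values were seen. NR4A1 fell in both genotypes, more in wildtype (interaction 0.93, adjusted p = 0.037), and hbae1.1 fell in MZrlig1 with a wildtype value of 0.68 (interaction -2.91, adjusted p = 0.0013).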

How the data were processed

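The authors deposited whole-number read counts per gene, raw and not normalised, in one table for whole embryos and one for heads, and FPKM values in tables of the same layout. The submitters' processing notes name STAR 2.7.10b, Salmon 0.14.1, DESeq2 1.42.1 and GRCz11, without roles. Strand use is not given in the sources used here. The deposited FPKM values served to derive the gene length behind each table, as an alternative offset. The tables list 37241 genes. Without the 4721 that are empty in all libraries, 32520 were analysed. Of these, 6321 share their name with another and are given by identifier.

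Counts were tested with edgeR 4.0.16 (R 4.3.3, limma 3.58.1; TMM, filterByExpr, robust glmQLFit, Benjamini-Hochberg over all genes tested), heads against whole larvae with no covariate, and the interaction in 4 groups over all 19 libraries of 5 dpf. The procedure was also run on simulated counts with few changed genes and no outlying pools. That setting is simpler than these data, so it does not show how the procedure behaves here. A gene passes at an adjusted p under 0.05. SE is that of the log2 fold change. Alternatives were DESeq2 1.42.0, other scalings and filters, subsets of heads, and leaving out each pool. Floors and counting intervals (95%) reflect counting error alone, because amplified reads are not separate molecules.

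The genes named are the 8 largest rises and 8 largest falls with their own name, at least 20 CPM and no overlap; in each list the 2 largest rises and 2 largest falls of at least 5 CPM and the highest member; all Hox, clock and marker genes; and the 5 smallest interaction p in each direction. The comparison, the lists and the rule were chosen with earlier results of these data known. Of 1285 list names, 1105 (86.0%) were found in the tables, so counts are of genes found and tested. Not every gene the rule picks is reported here.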

Additional observations from a re-analysis of the deposited data

Results flagged for a closer look

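In 217 named genes with at least 60 head counts, the 6 heads were searched for a single pool far from the others, and 21 had one. Chance flags about 1 in 20 groups. Good-behaviour head 3 was the distant pool for 9 of the 21: it was highest for hoxb1a (1.70 CPM), csnk1da (196 CPM), cry4 (71.0 CPM), tfa (2057 CPM), XBP1 (363 CPM), ntd5 (127 CPM), OPN3 (14.1 CPM) and ptgdsb.2 (422 CPM), and lowest for TBX4 (1.48 CPM). Bad-behaviour head 2 was the distant pool for 8. It was highest for the eye and brain genes OTX2 (88.5 CPM), OPN1SW (5267 CPM), PDE6C (723 CPM), FEZF2 (34.2 CPM), ARR3 (ENSDARG00000098475, 587 CPM) and TYRP1 (ENSDARG00000056151, 186 CPM), and for ENSDARG00000026599 (16.2 CPM), and lowest for atp2a2a (62.2 CPM). Good-behaviour head 2 was highest for HOXB3 (65.3 CPM), SLC6A5 (82.2 CPM) and ENSDARG00000012311 (12.3 CPM), and bad-behaviour head 1 lowest for apoa1b (2907 CPM).

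Besides krt17, cyt1, epcam, krt93 and CLP1, which were named after their values were seen, 14 named genes passed the interaction test. Most of them were named for having the 5 smallest interaction p in a direction, so their passing follows from that choice. Only NR4A1, hbae1.1, ccl25a and MIP were named on other grounds. In all 14 the effect of head against whole larva differed between genotypes, with values of MZrlig1 minus wildtype on the log2 scale. It was lower in MZrlig1 for si:ch211-59h6.1 (-9.48, a fitted value against a group of zeros), cdh29 (-4.88), cyp2k8 (-4.18), hbae1.1 (-2.91), ENSDARG00000002217 (-1.89), TNFRSF19 (-1.36) and the lens water channel gene MIP (ENSDARG00000037285, -0.93). It was higher in MZrlig1 for NR4A1 (0.93), SEPHS1 (1.17), ccl25a (1.92), si:ch211-108d22.2 (2.39), si:dkeyp-116a7.2 (2.39), si:dkey-7i4.12 (3.1) and ENSDARG00000056909 (4.58).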

How the results depend on the processing

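With the good-behaviour heads alone 2002 genes passed, 931 rises and 1071 falls, between heads and whole larvae. Leaving out 1 pool at a time gave 1926 to 4020 genes passing, 317 to 527 rises and 881 to 1074 falls of 2-fold or more, and 165 to 295 genes passing in the interaction. Among the lists, total counts as scaling gave 44 rises of lens, 33 of neuron, 28 of liver and 4 of RNA end genes, in place of 24, 18, 17 and 0. The DESeq2 Wald test gave 30 neuron and 3 RNA end rises, and the fit of all 19 libraries 29 neuron rises. Good-behaviour heads alone gave 17 exocrine pancreas rises in place of 4, but 14 lens, 9 neuron, 8 brain factor and 4 ear rises and 8 pronephros falls, in place of 24, 18, 17, 9 and 13. They also gave 2 pigment epithelium, 5 slow muscle, 3 anterior Hox, 4 middle Hox and 4 blood falls and 3 immediate early and 2 olfactory, taste, gill and thyroid rises, in place of 5, 8, 7, 7, 7, 5 and 4. Bad-behaviour heads alone gave 5 cartilage and bone and 10 liver rises in place of 8 and 17. Total counts gave 7 energy metabolism rises in place of 4, the DESeq2 Wald test 11 liver falls in place of 7, and the fit of all 19 libraries 3 intestine rises in place of 7. A test against a change of 2-fold itself (glmTreat) called 94 rises and 355 falls. Several alternatives kept within 1.5 times the number of genes passing, the numbers of 2-fold rises and falls and, where it was fitted, the interaction count. They were size factors of DESeq2, total counts, no filter and the DESeq2 Wald test, and also bad-behaviour heads alone, equal weight of behaviours and all 19 libraries. Gene length offsets and leaving out whole pool b with good-behaviour head 3, these 2 chosen after seeing the data, did so too. The length offsets were the same in both genotypes, so the interaction count could not change with them and tells nothing. Total counts gave 2783 rises of any size in place of 1612. Only mbpb turned its direction, to 0.30 with length offsets, made from the different lengths behind the 2 tables; the other named genes kept theirs wherever they had passed. No paired analysis was possible for heads against whole larvae because heads carry numbers and whole pools letters. With replicate label as a block in the interaction 150 genes passed. Deviations of same-labelled pools of the genotypes from their group means had r of -0.474 to -0.0530 in 5 head pairs and -0.445 to -0.144 in 3 whole pairs. Differently labelled pools had r of -0.398 to 0.491 in 15 head pairs and -0.295 to 0.403 in 6 whole pairs. With so few pools per group these values depend on one another, so they cannot decide whether the labels pair pools. The 3 whole pools limit precision, and near-zero posterior, ileal and tubular genes are limited by counting.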

Other observations

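Of the 283 genes whose head against whole difference differed between genotypes, 72 carry the name of a genomic clone. Of these, 20 share their clone with another of the 283, in 8 clones, and si:dkey-7i4 and si:ch211-210b2 hold 4 each. Neighbouring genes of 1 clone lie at 1 place in the genome. The matching shares among all genes tested were not counted. It therefore cannot be said whether 72 or 20 is more than usual. No reason for the sharing was tested.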
